A study of Mus musculus with 8 samples.

Results

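Genes of 9 enzymes of the urea cycle and of amino acid breakdown were followed in mouse liver and hypothalamus: the ornithine aminotransferase gene Oat, the cytosolic aspartate aminotransferase gene Got1, the urea cycle genes Otc, Ass1, Asl and Arg1, and the genes Tat, Hpd and Tdo2 of tyrosine and tryptophan breakdown. Each was read from its probe whose platform annotation gives exactly 1 gene symbol. All 9 of the 9 genes had such a probe, and each had 1, out of 13840 genes with a single-symbol probe and 33012 probes on the array. None of the 9 lies on chromosome 17, where the congenic strain differs from its background.

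The samples were male mice of C57BL/6J, called B6 here, and of B6.CAST-17, a homozygous congenic strain with chromosome 17 material of CAST on the B6 background, called congenic here. Both strains were studied on chow and on a 2-choice diet given for 24 h, in which a carbohydrate/protein diet (78% and 22%) and a fat/protein diet (78% and 22%) were offered together. The mice had been picked from 20 to 25 per strain for the most divergent nutrient intake over 10 days of self-selection, then returned to chow for 6 weeks before 1 day of choice; 2-choice tissues were taken 4 h before lights out, and the time for chow tissues was not established here. Each combination of tissue, strain and diet was 1 array of RNA pooled from 6 mice, so 8 arrays in all and no repeated pool. Each group is therefore 1 pool, and ages were not used here. In such bulk tissue, fewer cells of a type and less RNA per cell cannot be told apart.

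The liver removes the nitrogen of amino acids as urea. Otc joins ornithine with carbamoyl phosphate to make citrulline, Ass1 joins citrulline with aspartate, Asl splits the product into arginine and fumarate, and Arg1 releases urea and returns ornithine. Got1 makes aspartate, which carries nitrogen into the cycle, and Oat moves ornithine out towards glutamate; in liver Oat is known as an enzyme of the hepatocytes around the central veins, while the urea cycle runs mainly in those around the portal tracts. Tat, Hpd and Tdo2 take part in tyrosine and tryptophan breakdown, and Tat and Tdo2 are textbook targets of glucocorticoids.

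Values are log2 levels after quantile normalization over the 4 arrays of a tissue, so a difference of 1 is a factor of 2. Depth cannot be given for arrays; the number of arrays limits the precision. Both strains of a tissue and diet had been brought to 1 distribution by the authors, with median deposited intensities of 700 in liver on chow, 702 in liver on 2-choice, 560 in hypothalamus on chow and 1338 in hypothalamus on 2-choice, so in hypothalamus diet and scaling cannot be told apart. Summed hepatocyte markers were between log2 22.20 and 22.90 in liver and between 10.71 and 13.14 in hypothalamus, and summed hypothalamic neuron markers were between 12.53 and 13.28 in liver and between 18.56 and 19.20 in hypothalamus. The congenic segment gave a check of the strain labels through Decr2, a gene of chromosome 17 chosen after its values were seen. Its level differed between congenic and B6 pools by -2.63 and -2.32 in liver and by -3.26 in hypothalamus on 2-choice, but by 1.38 in the pair labelled hypothalamus chow, which goes against the other 3 pairs. The hypothalamus values below are given as labelled. The fitted diet difference is a mean over both strains, so its size does not depend on which chow library is which, whereas the strain difference does. The error of the fit depends on these labels too, and the liver tests share that error. The SEs and adjusted p-values of both tissues therefore rest on the labels, and the effect of an exchange on them was not tested.

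In liver, 7 of the 9 genes were lower on 2-choice than on chow in both strains, led by Oat, which was 2.25-fold lower. The next were Got1 (1.51-fold), Otc (1.47-fold) and Asl (1.40-fold). Arg1, counted among the 7, and Hpd were near 0, and Tat differed between the strains. Over all 19807 probes tested, 30.9% were lower in both strains, and the members' median difference was -0.37 against -0.01 for all probes. A mean difference of at least 1.5-fold, in the same direction in both strains, was reached by 2 genes, Oat and Got1, against 12.1% of all probes. Got1 (-0.59) lies just inside that limit of 0.58 on the log2 scale, and Otc (-0.55) just outside it. In limma over all 8 arrays, 0% of the probes and 0 of the 9 genes passed an adjusted p of 0.05, while 1731 probes and 3 of the genes had an unadjusted p under 0.05.

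**Figure D1:**
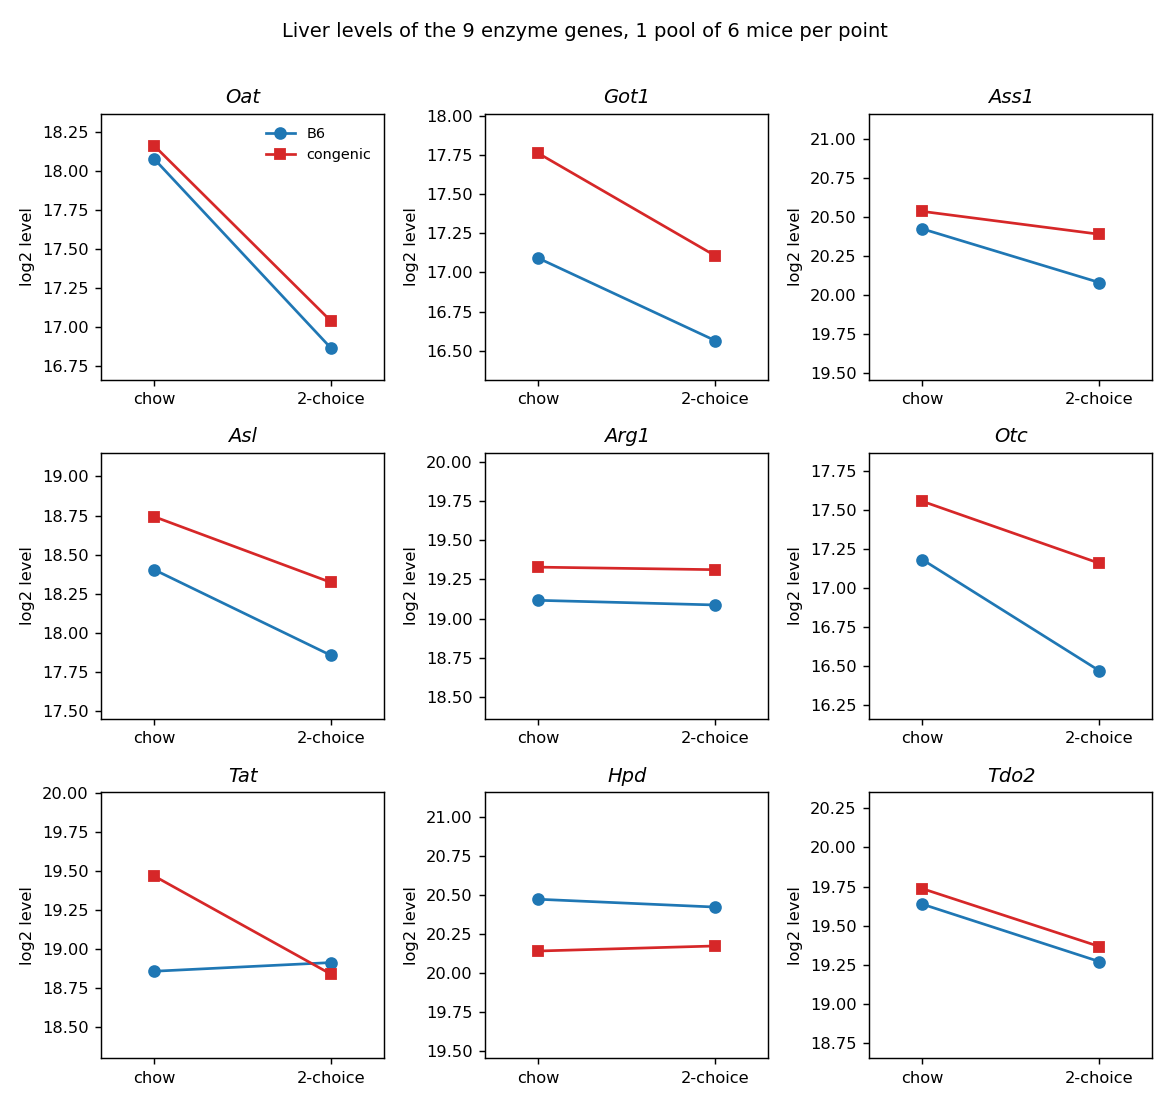
Log2 level (vertical axis, quantile normalized in liver) of each of the 9 genes on chow and on 2-choice (horizontal axis), 1 point per pool of 6 mice, circles for B6 and squares for congenic; the 9 panels cover the same height on different ranges. The Oat lines drop from 18.08 and 18.16 to 16.87 and 17.04, the Got1 lines drop in parallel with congenic above B6, and the Arg1 lines are flat.

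Oat was at 18.08 in the B6 pool and 18.16 in the congenic pool on chow, and at 16.87 and 17.04 on 2-choice. Both 2-choice pools lay below both chow pools, and the strains were close within each diet. The diet difference was -1.17 ± 0.18 (SE; B6 -1.21, congenic -1.12; 95% interval -1.58 to -0.75; limma adjusted p = 0.175). Among the 733 probes at least as bright in liver as the dimmest of the 9 genes, Oat ranked 10 from the lowest, and 4.23% of these bright probes had a mean at least 1.5-fold lower with the same sign in both strains.

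Got1, the aspartate supplier, was at 17.09 (B6) and 17.76 (congenic) on chow and at 16.56 and 17.11 on 2-choice. The congenic 2-choice pool lay between the B6 chow and congenic chow pools, so the diets overlapped, although each strain was lower on 2-choice. The difference was -0.59 ± 0.15 (95% interval -0.93 to -0.25; limma adjusted p = 0.360), and it ranked 32 of the 733 bright probes.

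Otc, the mitochondrial enzyme that makes citrulline, was at 17.18 and 17.55 on chow and at 16.47 and 17.16 on 2-choice. The diets narrowly did not overlap (17.18 in B6 on chow against 17.16 in congenic on 2-choice), and B6 had the larger difference (-0.71 against -0.40 in congenic). The mean was -0.55 ± 0.38 (95% interval -1.44 to 0.33; limma adjusted p = 0.730).

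Asl was at 18.40 and 18.74 on chow and at 17.85 and 18.32 on 2-choice, again without overlap. Its difference was -0.48 ± 0.15 (95% interval -0.84 to -0.13; limma adjusted p = 0.428). Ass1, the step before it, was at 20.42 and 20.54 on chow and at 20.08 and 20.39 on 2-choice, a difference of -0.24 ± 0.17 (limma adjusted p = 0.723). For Ass1 the 2-choice pools were the lower ones too, with the congenic pool only just below B6 on chow.

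Arg1, the last step of the cycle, did not follow these 3. It was at 19.12 and 19.33 on chow and at 19.09 and 19.31 on 2-choice, a difference of -0.02 ± 0.21 whose 95% interval runs from -0.52 to 0.47 (limma adjusted p = 0.988). That interval includes a difference as large as that of Asl. However, the SEs and intervals of this fit also draw on the hypothalamus arrays, where Arg1, Otc, Tat and Tdo2 were dim. On the liver arrays alone their SEs were 0.18, 0.14, 0.19 and 0.18. Whether an Arg1 interval from liver alone would include the Asl difference was not tested.

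The genes of aromatic amino acid breakdown were mixed. Tdo2, which opens the tryptophan ring, was at 19.64 and 19.74 on chow and at 19.27 and 19.37 on 2-choice, so every 2-choice pool was below every chow pool by the same amount in each strain (-0.37 and -0.37; mean -0.37 ± 0.18, limma adjusted p = 0.594). Hpd, the second enzyme of tyrosine breakdown, was at 20.47 and 20.14 on chow and at 20.42 and 20.18 on 2-choice, a difference of -0.01 ± 0.17 (limma adjusted p = 0.994). Tat, the first, stood out through 1 pool: 19.47 in congenic on chow, against 18.86 in B6 on chow and 18.91 and 18.84 on 2-choice. Its diet differences were thus 0.06 in B6 and -0.63 in congenic (mean -0.29 ± 0.47, limma adjusted p = 0.908). Groups that do not overlap, with 2-choice lower, were seen for 5 of the 9 genes (Oat, Ass1, Asl, Otc and Tdo2) and for 21.6% of all probes.

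The call for Oat depended on which arrays estimated the error. A limma fit on the 4 liver arrays alone has 1 residual degree of freedom and passed 639 probes (3.23%, of which those lower on 2-choice were 1.51% of all tested). In it Oat (adjusted p = 2.0e-04), Got1 (adjusted p = 0.0267) and Otc (adjusted p = 0.0450) passed, and the other 6 genes did not. Without the hypothalamus chow pair in the 8-array fit, an alternative added after seeing the data, 397 probes passed, with Oat at an adjusted p of 0.00142 and Got1 at 0.0499 in limma. Over 9 alternatives other than single left-out arrays, the adjusted p was between 2.0e-04 and 0.690 for Oat (2 past the threshold), between 0.0267 and 0.704 for Got1 (2) and between 0.0450 and 0.860 for Otc (1). The differences kept their sign under the other scalings. The remaining alternatives leave the liver difference itself unchanged, so its sign could not change there.

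**Figure D2:**
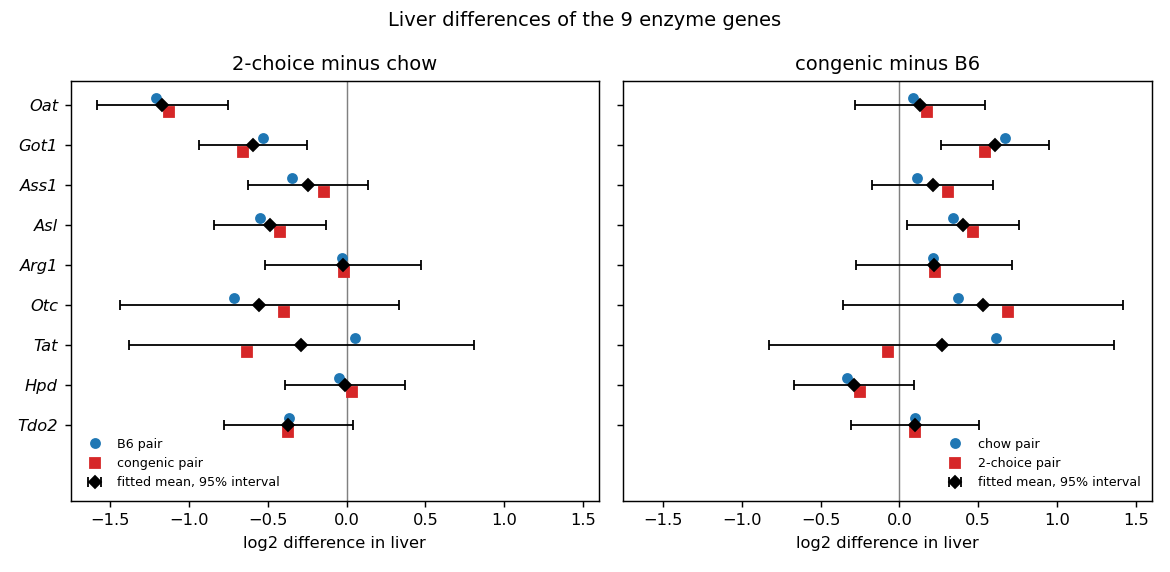
Log2 differences in liver (horizontal axis) for the 9 genes (vertical axis), 2-choice minus chow on the left and congenic minus B6 on the right; circles and squares are the 2 single pairs, diamonds the fitted mean with its 95% interval. On the left the intervals of Oat (-1.58 to -0.75), Got1 and Asl lie below 0, and on the right those of Got1 (0.26 to 0.95) and Asl lie above 0.

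Of the 9 genes, 7 have a RefSeq promoter window (GRCm38.p6) of 250 bases before to 50 after the start. The windows of the 3 genes with the largest liver diet difference are shown. Each was lower on the choice diet than on chow within each strain, although the diets overlapped for Got1. Oat lies at chr7:132576349-132576648 (minus strand), Got1 at chr19:43524556-43524855 (minus strand) and Otc at chrX:10252055-10252354 (plus strand). Capitals mark CCAAT on either strand, so ATTGG is its reverse complement.
Oat: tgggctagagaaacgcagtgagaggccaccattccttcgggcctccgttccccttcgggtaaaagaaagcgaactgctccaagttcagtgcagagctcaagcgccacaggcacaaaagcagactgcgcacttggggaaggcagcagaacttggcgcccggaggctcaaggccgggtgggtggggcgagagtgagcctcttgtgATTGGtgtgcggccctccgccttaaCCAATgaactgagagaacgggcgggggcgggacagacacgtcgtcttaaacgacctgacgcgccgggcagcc
Got1: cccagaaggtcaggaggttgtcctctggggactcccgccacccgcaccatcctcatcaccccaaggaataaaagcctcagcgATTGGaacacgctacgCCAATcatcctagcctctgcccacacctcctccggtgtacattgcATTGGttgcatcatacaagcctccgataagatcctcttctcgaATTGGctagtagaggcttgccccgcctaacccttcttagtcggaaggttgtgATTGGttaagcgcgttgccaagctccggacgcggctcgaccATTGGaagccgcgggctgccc
Otc: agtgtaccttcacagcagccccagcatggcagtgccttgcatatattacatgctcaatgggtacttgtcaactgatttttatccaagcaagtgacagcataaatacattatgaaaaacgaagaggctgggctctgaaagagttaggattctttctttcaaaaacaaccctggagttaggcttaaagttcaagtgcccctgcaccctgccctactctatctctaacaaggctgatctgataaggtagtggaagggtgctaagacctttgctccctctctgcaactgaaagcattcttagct

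The searched motifs were CCAAT (the CCAAT box), GGGCGG (the GC box), TATAAA (the TATA box), TGACGTCA (the cAMP response element) and the glucocorticoid response element as AGAACA followed after 3 bases by TGTTCT, each on both strands. No match of one overlapped a match of another in the 7 windows. Over 32851 promoter windows of this length they were present in 37.4%, 35.7%, 13.6%, 1.79% and 0.00913%. The Got1 window held 6 CCAAT matches, a number reached by 26 windows (0.0791%), and none of the other motifs. The Oat window held 2 CCAAT and 2 GGGCGG matches; 11.7% of windows had at least 2 CCAAT. The Otc window held none of the 5 motifs, and its GC content was 44.33% against 61.67% for Oat and 57.33% for Got1. Of the others, Tat had 3 CCAAT matches, Tdo2 1 CCAAT and 1 TATAAA, and Ass1 and Hpd 1 GGGCGG each. So the 3 genes shared no motif of this search. A match is only a run of letters, and the arrays measure no binding.

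Between the strains, 7 of the 9 genes were higher in the congenic liver than in B6 on both diets, and Hpd was lower on both. Got1 had the largest difference, 1.52-fold. Of all probes 28.1% were higher in both pairs, and the members' median was 0.22 against 0.01 for all probes. Congenic was higher in both pairs, and by a mean of 1.5-fold or more, for 1 gene, Got1, against 9.16% of all probes and 1.5% of the 733 bright probes. In limma over 8 arrays 0% of the probes passed (1318 with an unadjusted p under 0.05), and 0 of the 9 genes, of which 2 had an unadjusted p under 0.05.

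The Got1 difference was 0.67 on chow and 0.54 on 2-choice (mean 0.61 ± 0.15, 95% interval 0.26 to 0.95, limma adjusted p = 0.562). It ranked 12 from the highest of the 733 bright probes. On the 4 liver arrays alone limma passed 252 probes (1.27%; congenic higher 0.237%), among them Got1 (adjusted p = 0.0420) and none of the other 8 genes. Without the hypothalamus chow pair in the 8-array fit, 122 probes passed and Got1 had an adjusted p of 0.0841 in limma. Over 9 such alternatives its adjusted p was between 0.0420 and 0.756, with 1 past the threshold.

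Otc and Asl, which were also among the genes lower on 2-choice, followed Got1. Otc was higher by 0.37 on chow and 0.69 on 2-choice (mean 0.53 ± 0.38, limma adjusted p = 0.870). Asl was higher by 0.34 and 0.47 (mean 0.40 ± 0.15, 95% interval 0.05 to 0.76, limma adjusted p = 0.714). Arg1, whose diet difference was -0.02 ± 0.21, was higher by 0.21 and 0.23, and both of its congenic pools lay above both B6 pools.

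Ass1 (0.11 and 0.31), Oat (0.08 and 0.17) and Tdo2 (0.10 and 0.10) had smaller values, each below 1.5 standard errors of its fitted mean. Hpd was lower in congenic by -0.33 and -0.25 (mean -0.29 ± 0.17, limma adjusted p = 0.822), without overlap. The strains did not overlap for Got1 and Arg1, with congenic higher (16.5% of all probes), and for Hpd, with congenic lower (18%). Tat was 0.61 higher on chow and -0.07 on 2-choice. The change of the strain difference with diet was -0.68 for Tat and between -0.13 and 0.31 for the other 8 genes; with 1 pool per group it was not tested.

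Other genes of these pathways gave the setting for the 9. Of 5 lists of enzymes of amino acid breakdown, 30 of 49 genes were tested in liver. On 2-choice 6 were higher and 11 lower in both strains, 0 by at least 1.5-fold, with a median difference of -0.03 and a range from -0.52 to 0.47. In congenic 13 were higher and 8 lower on both diets, with a median of 0.08 and a range from -0.36 to 0.46. In both comparisons 0 of the 30 passed in limma over 8 arrays. The diet difference of Oat lay outside the whole range of these 30 genes, and the strain difference of Got1 above it. Members and lists were chosen with earlier results of these data known, so these positions are a description only.

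Among urea cycle partners 3 of 6 were tested; Nags, which makes the activator of the cycle's entry enzyme, was at -0.38 with diet and 0.34 with strain, and the aspartate/glutamate carrier Slc25a13 at 0.17 with diet. The ornithine carrier Slc25a15 was at -0.09 with strain. Of the aromatic and tryptophan list 6 of 10 were tested: with diet Kmo was at 0.47, Afmid at -0.44 and Fah, the last enzyme of tyrosine breakdown, at 0.10; with strain Ido2 was at 0.41, Hgd at -0.31 and Afmid at 0.28.

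Of the other transaminases and the enzymes of glutamate and glutamine 5 of 8 were tested. The glutamate dehydrogenase gene Glud1 was at -0.28 with diet and 0.09 with strain, Agxt at -0.21 and 0.25, and the glutamine synthetase gene Glul at 0.12 and -0.36. Of the serine, glycine, threonine, histidine, lysine and proline list 7 of 13 were tested. Hal, the histidine ammonia lyase gene, was at -0.52 with diet and was the 1 gene of the 5 lists to pass on the liver arrays alone (limma adjusted p = 0.0435), and Ftcd was at 0.21; with strain Ftcd was at 0.46, Gldc, of glycine cleavage, at 0.42 and Hal at 0.33, and 4 of the 7 were higher in congenic on both diets, 0 lower.

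The branched-chain list, with 9 of 12 tested, had 6 genes lower and 1 higher on 2-choice, all by small amounts, the largest being Acadsb (-0.28), Acad8 (-0.21) and Ivd (-0.18). With strain Mccc1 was at 0.40, Acad8 at 0.13 and Hibch at 0.10. Of amino acid transporters 6 of 7 were tested; with diet the glutamate transporter Slc1a2 was at -0.65, the cationic amino acid transporter Slc7a2 at -0.37 and Slc38a2 at 0.33, and with strain Slc38a4 was at -0.43, Slc38a2 at 0.41 and Slc1a2 at -0.33.

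Among regulators of these genes 8 of 10 were tested. The glucocorticoid receptor gene Nr3c1 was at -0.68 with diet and -0.62 with strain, Cebpb at 0.58 and -0.62, and Cebpa at -0.43 and 0.27; none passed in limma. Of 8 glucocorticoid and fasting targets 7 were tested, with a median diet difference of 0.40. On 2-choice 5 of these were higher in both strains and 0 lower, against 29.3% of all probes higher in both. The 5 include Dusp1 at 0.40 and Fkbp5 at 0.06. Pck1 (0.56 in B6, -0.10 in congenic) and Sgk1 (0.04 and -0.34) differed in sign between the strains. G6pc, the catalytic subunit of glucose-6-phosphatase, was at 1.71 ± 0.24, Igfbp1 at 0.86 ± 0.29 and Tsc22d3 at 0.83 ± 0.20, and these 3 passed on the liver arrays alone (limma adjusted p = 3.7e-05, 0.00477 and 0.00670) but not over 8 arrays. With strain Igfbp1 was at 0.63, Fkbp5 at -0.40 and Tsc22d3 at 0.37. Tat and Tdo2, which are glucocorticoid targets too, were at -0.29 and -0.37 in the same pools.

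**Figure D3:**
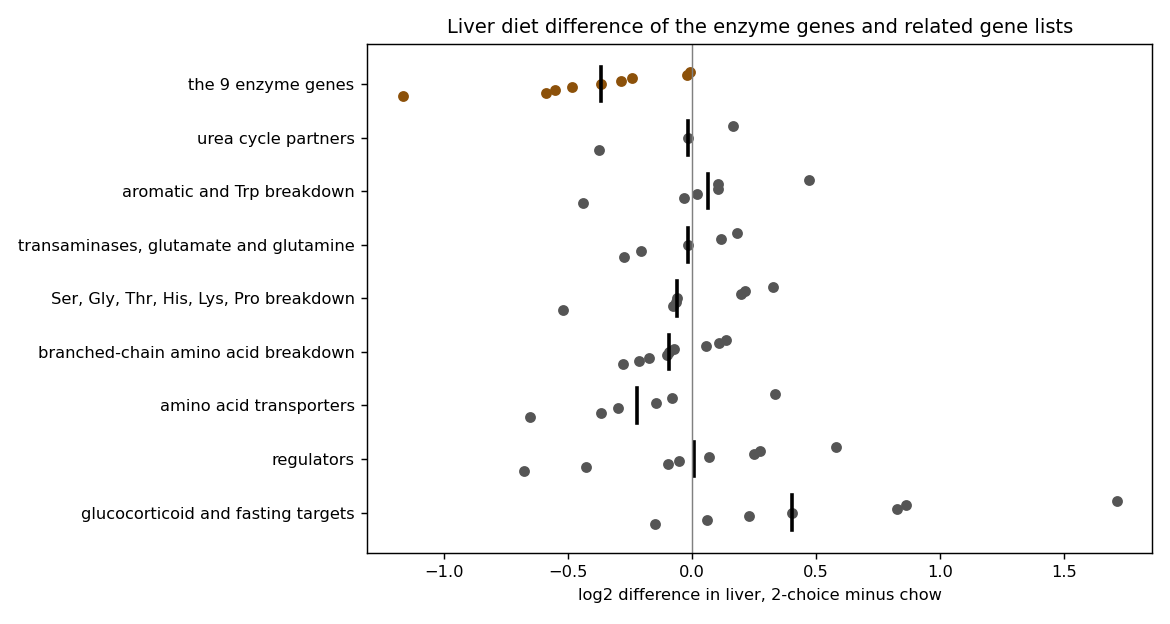
Log2 difference in liver, 2-choice minus chow (horizontal axis), of the 9 enzyme genes and of the tested genes of 8 related lists (vertical axis); each point is the fitted mean of 1 gene and each bar the median of its list. The 9 genes have a median of -0.37 with Oat at -1.17, the 5 enzyme lists below them lie between -0.52 and 0.47, and the glucocorticoid and fasting targets reach 1.71.

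Some markers of other liver cells differed with diet too. Of 7 genes of Kupffer cells and macrophages (median -1.33), 6 were at least 1.5-fold lower on 2-choice in both strains, against 12.1% of all probes. These 6 passed on the liver arrays alone in limma, where 1.51% of all probes passed as lower. The summed log2 level of the 7 was 17.84 and 17.87 on chow against 16.64 and 16.34 on 2-choice, with 0 of the 7 below the level used as filter. Of 5 genes of sinusoidal endothelium, 4 were lower in both strains, against 30.9% of all probes, with summed levels of 15.89 and 16.09 against 15.08 and 15.32. Other lists did not all go this way. Of 3 tested cholangiocyte genes 1 was higher in both strains and 0 lower, and of 2 tested stellate cell genes 1 was lower. The erythrocyte gene Hba-a1 was at -1.27 and passed on the liver arrays alone (limma adjusted p = 3.7e-04), while Alas2 was at 0.22. Hepatocyte markers summed to 22.51 and 22.90 on chow and to 22.20 and 22.80 on 2-choice. The periportal list gave 20.77 and 20.63 on chow against 19.75 and 21.16, and the pericentral list, which holds Oat, 21.91 and 21.73 against 21.88 and 21.77. Of the 6 tested pericentral genes 4 were lower on 2-choice in both strains (Oat, Slc1a2 at -0.65, Rhbg at -0.44 and Cyp1a2 at -0.13) and 2 higher (Glul at 0.12 and Cyp2e1 at 0.15). The part of these cell type markers in the values of the 9 genes was not tested.

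For the 3 genes whose 4 liver levels span at least 1 log2 unit, the genes with the most similar levels were found among 10083 named probes, by root mean square distance of the centred levels over the same 4 arrays. For Oat these were Ikbkg (0.0398), Trim46, Acsl6, Aldoa and Rhbdl3 (0.0710). For Got1 they were Herpud1 (0.0320), Gen1, Pnpla6, Myct1 and Ltbp4 (0.0547). For Otc they were Ccl9 (0.0305), Gpr157, Ank3, Ddt and Sdcbp (0.0388). With 4 arrays this is a description only.

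The 9 genes were mostly genes of liver in these arrays. With quantile normalization over all 8 arrays and 4 matched pairs of liver and hypothalamus, 8 of the 9 genes were higher in liver in limma, and Got1 did not pass under this scaling; over all probes 49.1% passed and 24.1% were higher in liver. Oat was 7.23-fold higher (log2 2.85 ± 0.38, limma adjusted p = 1.2e-04), Ass1 21.4-fold (4.42 ± 0.18, adjusted p = 1.3e-08) and Asl 25.1-fold (4.65 ± 0.20, adjusted p = 1.9e-08). Hpd had a fold of 942, which rests on a hypothalamus mean of 9.66, little above the 40th percentile of all probes (9.14).

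For Arg1, Otc, Tat and Tdo2 the hypothalamus probes lay mostly below the 40th percentile of all probes: 1, 1, 1 and 2 of the 4 hypothalamus arrays were above it. Detection flags were not used here, so their hypothalamus level was taken as no lower than that percentile on each array, which gives bounds. Arg1 was at least 641-fold higher in liver, Otc at least 156-fold, Tat at least 492-fold and Tdo2 at least 683-fold (limma adjusted p 1.4e-09, 5.3e-09, 1.0e-08 and 2.8e-09). These 4 genes and Hpd thus separate from Oat, Ass1 and Asl, whose hypothalamus levels were well inside the measured range.

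Got1 was nearly level between the tissues: -0.15 ± 0.22 for liver minus hypothalamus (95% interval -0.64 to 0.35, limma adjusted p = 0.624). Its direction turned to 0.81 on the deposited values, to 1.11 with each array centred on its median and to 1.11 with quantile normalization per tissue. Under the last 2 Got1 passed as higher in liver (limma adjusted p = 0.0139 and 0.00218), so both its direction and its call depend on the scaling.

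**Figure D4:**
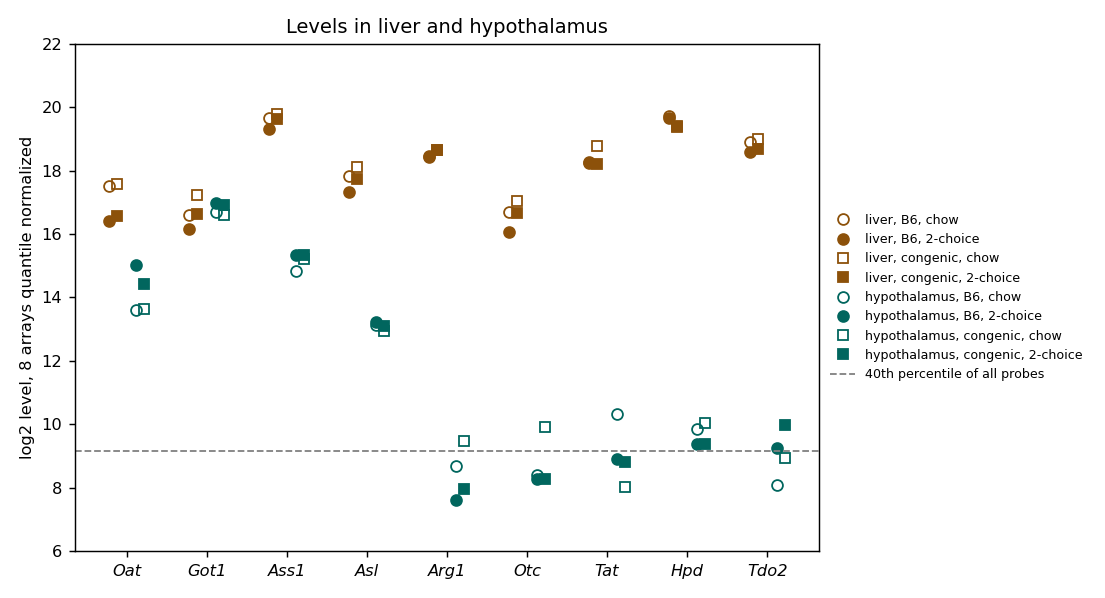
Log2 level after quantile normalization over 8 arrays (vertical axis) of the 9 genes (horizontal axis) in liver (brown) and hypothalamus (green), 1 point per pool, circles for B6, squares for congenic, open for chow and filled for 2-choice; the dashed line is the 40th percentile of all probes (9.14). Got1 overlaps between the tissues, Oat, Ass1 and Asl are lower in hypothalamus but above the line, and Arg1, Otc, Tat and Tdo2 scatter around it.

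In hypothalamus 5 of the 9 genes passed the filter on mean level (Oat, Got1, Ass1, Asl and Hpd), and only these were tested there. Hpd (9.51 to 10.22) was close to the filter level of 9.26. Arg1 was at 7.61 to 9.62, Otc at 8.30 to 10.09, Tat at 8.02 to 10.51 and Tdo2 at 8.08 to 10.16, and no difference is read from these 4. Higher on 2-choice in both strains were 4 of the 5, against 33.6% of all probes.

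Oat was at 13.51 (B6) and 13.53 (congenic) on chow and at 14.75 and 14.24 on 2-choice in hypothalamus, the opposite order of diets from liver. Its difference was 0.98 ± 0.18 (B6 1.25, congenic 0.71; limma adjusted p = 0.0540); a mean at least 1.5-fold higher with the same sign in both strains was seen for 21.8% of all probes. In this comparison 97 probes (0.490%) and 0 of the 5 genes passed in limma over 8 arrays. An unadjusted p under 0.05 was seen for 2 of the 5 and for 4143 of the 19807 probes tested. On the 4 hypothalamus arrays alone 753 probes passed (3.80%), with Oat among them (adjusted p = 0.00776). Oat also passed in limma with quantile normalization over 8 arrays (adjusted p = 0.0450). With 1 hypothalamus array left out its difference was between 0.70 and 1.26. Over 8 alternatives other than left-out arrays its limma adjusted p was between 8.4e-06 and 0.248, with 4 past the threshold. Among these 4 are the deposited values and median centring, where 15430 and 7633 probes passed, so a pass there does not set Oat apart. Another of the 8, the mean of all its probes, equals the main fit because Oat has 1 probe.

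Got1 was at 16.22 and 16.14 on chow and at 16.49 and 16.45 on 2-choice (0.29 ± 0.15, limma adjusted p = 0.303). Ass1 was at 14.58 and 14.91 on chow and at 15.03 and 15.01 on 2-choice (0.27 ± 0.17, adjusted p = 0.386). Oat, Got1 and Ass1 were the 3 genes without overlap and with 2-choice higher, as were 29.2% of all probes. Asl overlapped (13.10 and 12.93 against 13.19 and 13.07; 0.11 ± 0.16), and the dim Hpd was lower (10.01 and 10.22 against 9.52 and 9.51; -0.60 ± 0.17, adjusted p = 0.114), as 16.6% of probes were by a mean of 1.5-fold or more, lower in each strain. On the hypothalamus arrays alone the SE of this Hpd difference was 0.88 (limma adjusted p = 0.758). Without the B6 chow array Hpd was at -0.81, a value that rests on the congenic pair alone.

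These hypothalamus diet values lean on the scaling. On the deposited values the median diet difference of the tested probes was 2.05. Oat differed by 3.18, Got1 by 2.32, Ass1 by 2.42, Asl by 2.38 and Hpd by 0.69, the last in the opposite direction. With median centring the median difference of the tested probes was 0.79 and Oat was at 1.92. Oat lay above the median difference of the tested probes under each of these scalings.

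Between the strains in hypothalamus 0% of the probes passed in limma (983 at an unadjusted p under 0.05) and 0 of the 5 genes, whose lowest adjusted p was 0.823. Oat was at -0.25 ± 0.18, Got1 at -0.06 ± 0.15, Ass1 at 0.15 ± 0.17, Asl at -0.14 ± 0.16 and Hpd at 0.11 ± 0.17. For the dim Hpd the SE on the hypothalamus arrays alone was 0.88. In the 2-choice pair alone, whose Decr2 difference has the sign seen in liver, Oat was at -0.52 and Got1 at -0.04. The Got1 strain difference of 0.61 in liver thus stood beside -0.06 in hypothalamus, and the test of liver minus hypothalamus gave 0.67 ± 0.21 (limma adjusted p = 0.796, with 0% of 15466 probes passing and 836 at an unadjusted p under 0.05).

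For Oat the fitted diet difference was unequal between the tissues in the main fit, although in hypothalamus diet and scaling cannot be told apart. Among the 15466 probes that passed the filter in both tissues, 10 (0.0647%) passed the test of liver minus hypothalamus, and Oat was one of them (-2.15 ± 0.25, limma adjusted p = 0.0443). Both strains contribute: -1.21 and -1.12 in liver, 1.25 and 0.71 in hypothalamus. Got1 (-0.89 ± 0.21, adjusted p = 0.171), Asl (-0.60, adjusted p = 0.250) and Ass1 (-0.52, adjusted p = 0.340) had the same sign, and Hpd the opposite (0.59, adjusted p = 0.274).

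The Oat call was lost with quantile normalization over all 8 arrays (limma adjusted p = 0.0802) and with a filter at the 60th percentile (0.0693). It was also lost without any 1 of the 4 liver arrays and kept without any 1 of the hypothalamus arrays. Leaving out 1 array leaves as many terms as arrays in that tissue, so the error then comes from the other tissue alone. Calls with 1 array left out therefore reflect which tissue gave the error, and no conclusion is drawn from them. The Oat value itself was between -2.43 and -1.87 over the 8 left-out arrays, and that of Got1 between -0.96 and -0.82.

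**Figure D5:**
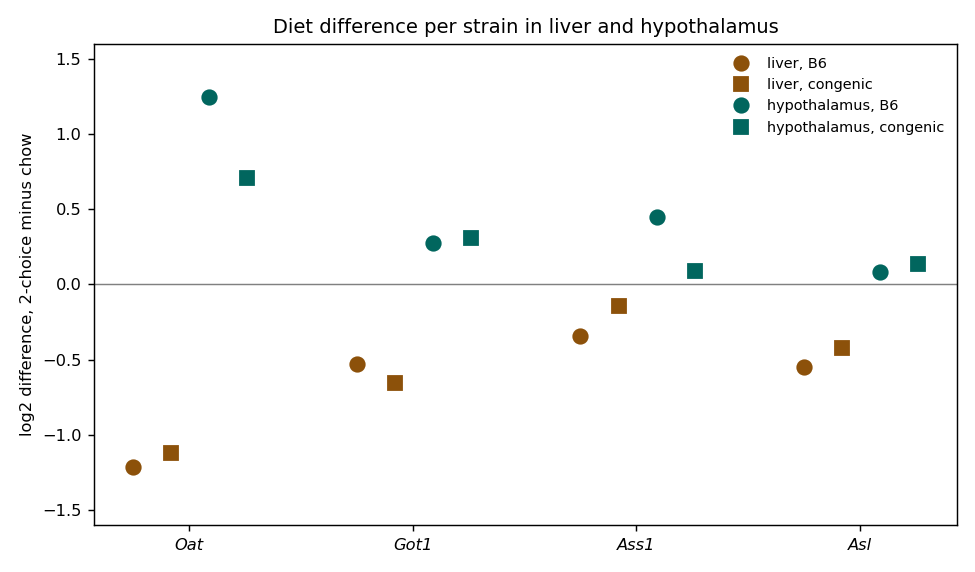
Log2 difference, 2-choice minus chow (vertical axis), of the 4 genes Oat, Got1, Ass1 and Asl (horizontal axis) in liver (brown) and hypothalamus (green), 1 point per strain, circles for B6 and squares for congenic. Each liver point lies below 0 and each hypothalamus point above it, widest apart for Oat (-1.21 and -1.12 against 1.25 and 0.71); the hypothalamus points depend on the scaling.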

How the data were processed

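Expression was measured in 8 mouse samples (2 tissues, 2 strains, 2 diets) on single-channel arrays; per the labels' protocols, 1 microgram of total RNA was made into digoxigenin-labelled cRNA for chemiluminescent detection. The deposited values are linear probe intensity. How the authors corrected background and scaled the arrays is not given in the sources used here. By the platform annotation, 14411 probes have 1 gene symbol, 247 several and 18354 none listed. Groups came from the sample titles; some descriptions in the labels name another tissue, strain or diet. Intensities were put on a log2 scale, with quantile normalization of each tissue's 4 arrays (of all 8 for the tissue comparison). Probes at or above the 40th percentile of mean level were tested. The limma package (version 3.58.1, R 4.3.3; eBayes with trend) fitted 1 model across all probes, with tissue and, inside each tissue, strain and diet as terms (2 residual degrees of freedom), or with 4 matched pairs as blocks for tissue (3 residual degrees of freedom), with Benjamini-Hochberg adjustment at 0.05. No pool was repeated, so the error is made of interactions and p-values reflect the spread of these pools alone. The procedure was tested on simulated data. Pathway genes named are up to 3 per list and comparison, those with the largest difference of 1 sign in both pairs; the most similar genes are the nearest 5. The members and lists were chosen with earlier results of these data known. Other scalings, filters, a fit without trend, each tissue alone and each array left out were tried. Sequences are from RefSeq (GRCm38.p6).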

Additional observations from a re-analysis of the deposited data

Results flagged for a closer look

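In the main fit the diet difference of Oat was unequal between the tissues: liver minus hypothalamus was -2.15 on the log2 scale (limma adjusted p = 0.0443). In liver both strains were lower on 2-choice and in hypothalamus both were higher. The limma adjusted p was between 1.1e-04 and 0.0802 over 5 other scalings and filters, 3 of which kept the call. Among the 5, the deposited values passed 10781 probes and median centring 3901, so a pass there does not set Oat apart. Quantile normalization over 8 arrays passed 0 probes. With 1 array left out the value was between -2.43 and -1.87, and the error then came from the other tissue alone. The hypothalamus chow and 2-choice arrays had been deposited on different scales, with medians 1.26 apart on the log2 scale (0.0037 in liver), and the part of that gap in the Oat value was not tested.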

How the results depend on the processing

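Of 579 values of the 9 genes under alternatives, 523 kept their direction and side of the threshold, 28 passed it newly, 6 no longer passed and 22 changed sign. Alternatives that change only the filter or the error estimate leave the difference itself unchanged, so no sign could change under them. The counts of probes passing depended on both the scaling and the error estimate. With each tissue's arrays alone, limma passed 639 probes for liver diet, 252 for liver strain, 753 for hypothalamus diet and 21 for hypothalamus strain; without the hypothalamus chow pair 397 and 122 passed in liver. With 1 array left out the counts were 9 to 31 for liver diet, 6 to 26 for liver strain, 444 to 2418 for hypothalamus diet, 38 to 904 for hypothalamus strain, 8334 to 9128 for tissue, 2 to 1520 for diet by tissue and 3 to 692 for strain by tissue. Quantile normalization over 8 arrays left 1 gene at least 1.5-fold lower with diet in liver and 0 higher with strain, and gave 202 probes for hypothalamus diet and 0 for diet by tissue. The deposited values gave 15430 for hypothalamus diet (15377 higher, 53 lower, against 70 and 27), 1 for hypothalamus strain, 5579 for tissue and 10781 for diet by tissue, with 5 genes at least 1.5-fold higher in hypothalamus; median centring gave 7633 (7167 higher, 466 lower), 1 and 3901, with 4 such genes, and for tissue 5287 higher and 3801 lower against 4773 and 4956. The 60th percentile filter gave 43 for hypothalamus diet and 2 for diet by tissue, and eBayes without trend 0 for hypothalamus diet. For the fits with fewer arrays or probes the construction differs; otherwise the cause was not tested. On the deposited values Hpd turned to 0.69 with hypothalamus diet and to -0.84 in diet by tissue, and Got1 to 0.81 between tissues (1.11 by median centring and 1.11 by quantile per tissue). With 1 array left out, signs changed for Hpd (-0.060 to 0.034) and Tat (-0.64 to 0.058) with liver diet, Tat (-0.074 to 0.62) with liver strain, Ass1 (-0.027 to 0.34), Hpd (-0.0048 to 0.19) and Oat (-0.51 to 0.025) with hypothalamus strain and Ass1 (-0.13 to 0.24) in strain by tissue, and without the B6 2-choice pair for Got1 between tissues (-0.41 to 0.083 over the left-out pairs). Averaging all probes of a gene changed nothing, since each has 1. Apart from the liver and hypothalamus arrays of 1 strain and diet, which were blocks in the tissue comparison, no pairing of replicates could be fitted, since the labels give no replicate numbers and each group is 1 pool. Low signal limits Hpd, Arg1, Otc, Tat and Tdo2 in hypothalamus.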
